A study of Rattus norvegicus with 12 samples.

Results

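The genes described here were 10 of the 28111 gene names in the deposited files: the inhibitors of DNA binding Id1, Id2, Id3 and Id4, the inhibitory SMADs Smad6 and Smad7, and the Hes and Hey repressors Hes1, Hes5, Hey1 and Hey2. Every name matched exactly 1 row in each library, so no rows had to be summed for them. They were chosen by name, as known targets of BMP and Notch signalling, with the differences between the treated cultures and the controls already known, Id1 and Hes5 among them. Their differences are therefore given as a description: no p-value of a member is given, and counts of members past a threshold only stand beside the share of all genes.

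The files held 12 libraries of primary neuroglial cultures of rat brain cortex, taken at 10 days in vitro and 4 h after treatment, with 3 libraries in each of 4 groups. Nothing was added to the intact control (IC). The EV group received 10 µg/mL of extracellular vesicles from glial progenitor cells (EV-GPCs), the third group 15 µg/mL of 3-100 kDa proteins from the medium of those cells, and the last group 45 µg/mL of total secretome. The vesicles and media came from human glial progenitor cells grown from the induced pluripotent stem cells of 1 donor, and the cultures of all groups came from newborn Wistar rats and were given cytosine arabinoside, which limits dividing glia. The doses differed between the preparations, so a difference between treated groups cannot be told apart from a difference of dose, and which library of a group came from which culture is not given in the sources used here, so p-values measure only the spread between these libraries.

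Bone morphogenetic proteins bind paired serine/threonine kinase receptors, which phosphorylate SMAD transcription factors, and the Id genes are among the direct targets of this pathway. Id proteins carry a helix-loop-helix domain without a DNA-binding part, so they hold other helix-loop-helix factors away from DNA. In the developing cortex they are known for keeping progenitors undifferentiated and for favouring astrocytes over neurons. Notch receptors are cut after contact with a ligand on a neighbouring cell, and the released intracellular part joins the DNA-binding factor RBPJ at genes of the Hes and Hey families. Their products repress proneural factors, and Hes5 is a widely used marker of Notch activity in neural progenitors and glia.

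Levels are given in TPM, a share of transcripts corrected for their length that sums to 1000000 in each library, and the read depth behind a value is unknown. Differences are of log2(TPM + 1) with the standard error (SE) of a limma fit, a scale that understates the change of low genes. A gene was counted as past p and fold where the unadjusted p was under 0.05 and the fold change over 1.5, and as past the FDR where the Benjamini-Hochberg adjusted p over all genes was under 0.05. Rps6, a ribosomal protein gene that cells depend on, had 0 TPM throughout the 12 libraries, so a listed 0 may be a failed estimate and is given per library. Because these are bulk samples, fewer cells of a type and less RNA per cell cannot be told apart.

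The bases before the starts of 4 members, Id1, Id3, Hes1 and Hes5, are shown so that the promoters of related genes that differed in direction can be compared. All come from RefSeq on the rat build GRCr8, with 250 bases up to the base before the annotated start, read 5′ to 3′ on the strand of the gene. For Id1 and Id3 the capitals mark TATAA on either strand, and for Hes1 and Hes5 they mark GTGGGAA, a core of the sequence bound by RBPJ, or its reverse complement. Id1 lies at chr3:161671314-161671563 on the plus strand, Id3 at chr5:153656041-153656290 on the plus strand, Hes1 at chr11:84213046-84213295 on the minus strand and Hes5 at chr5:170804327-170804576 on the plus strand.
Id1: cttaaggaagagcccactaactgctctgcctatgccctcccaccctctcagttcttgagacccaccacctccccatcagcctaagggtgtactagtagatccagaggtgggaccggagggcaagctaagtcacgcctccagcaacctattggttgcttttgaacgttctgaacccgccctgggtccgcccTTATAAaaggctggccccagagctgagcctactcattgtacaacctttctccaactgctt
Id3: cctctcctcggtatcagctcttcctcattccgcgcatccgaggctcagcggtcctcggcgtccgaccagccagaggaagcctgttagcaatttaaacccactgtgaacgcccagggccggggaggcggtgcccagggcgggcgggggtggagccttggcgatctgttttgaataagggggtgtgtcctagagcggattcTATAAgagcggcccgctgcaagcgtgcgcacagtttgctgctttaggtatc
Hes1: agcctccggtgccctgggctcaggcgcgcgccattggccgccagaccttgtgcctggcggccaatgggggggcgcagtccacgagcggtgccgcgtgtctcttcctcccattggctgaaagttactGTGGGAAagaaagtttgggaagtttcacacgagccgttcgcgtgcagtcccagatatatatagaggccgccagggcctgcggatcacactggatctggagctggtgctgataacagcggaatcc
Hes5: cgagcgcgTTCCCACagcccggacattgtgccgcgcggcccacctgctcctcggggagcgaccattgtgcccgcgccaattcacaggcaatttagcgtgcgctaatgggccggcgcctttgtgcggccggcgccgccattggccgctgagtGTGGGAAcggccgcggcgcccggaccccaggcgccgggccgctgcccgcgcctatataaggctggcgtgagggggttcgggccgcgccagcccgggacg

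GTGGGAA was searched on both strands of the 8 members that had a promoter entry, with no entry for Smad6 and Hey1. It was found in Hes1, at 124 bases before the start, in Hes5, at 99 bases on the plus strand and 242 bases on the minus strand, and in Hey2, at 61 bases. It was in none of the windows of Id1, Id2, Id3, Id4 and Smad7, and 5.27% of all 33469 promoters of the same length held it. GGCGCC, a GC-rich sequence bound by SMADs, was found 2 times in Smad7, 4 times in Hes5 and 1 time in Hey2, and in 8.69% of all promoters. The palindrome GTCTAGAC, another SMAD sequence, was in none of the 8 windows and in 0.173% of all promoters. CACNAG, the N-box bound by Hes proteins themselves, was found 4 times in Hes1 and in no other of the 8, against 37.2% of all promoters. TATAA was found in Id1, where the matches of the strands overlap in TTATAA, in Id3 and in Hes5, and in 24% of all promoters. The windows of Smad7, Hes5 and Hey2 held 78%, 73.2% and 73.2% G or C, and those of the other members between 54.8% and 62.8%. These matches describe letters only. Bases further than 250 before the start were not searched, so a motif not found may lie outside the window.

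**Figure D1:**
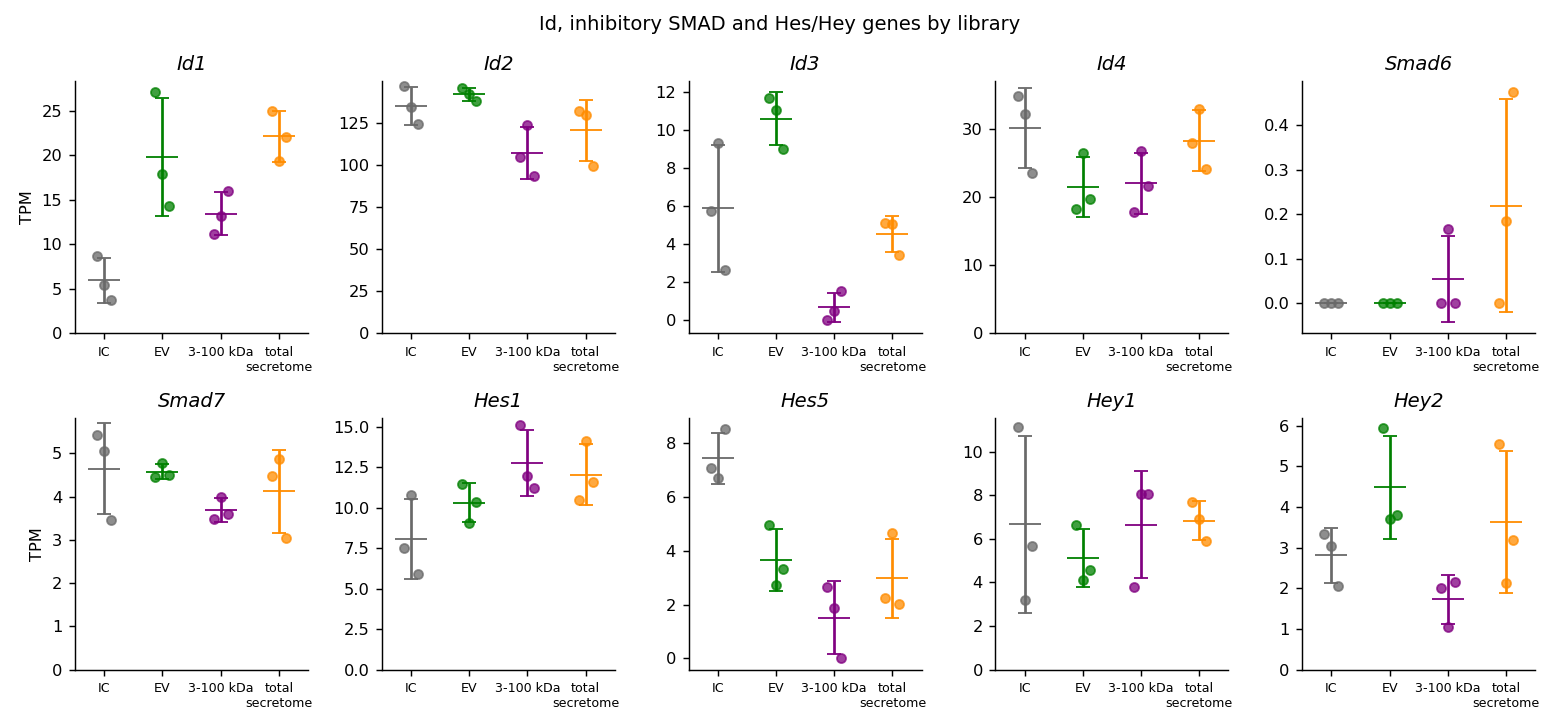
Level of the 10 genes in TPM (vertical axes, each with its own scale) in the 12 libraries, grouped as IC, EV, 3-100 kDa proteins and total secretome. Points are libraries, the long bars are group means and the whiskers are 1 SD (n = 3). All 9 treated libraries lie above IC for Id1 and below IC for Hes5, and Id3 is highest in EV and lowest with the 3-100 kDa proteins.

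Levels in untreated cultures spanned a wide range. Id2 was the most abundant member in IC at 135 ± 11.3 TPM (SD, n = 3), rank 987 of the 28111 names, and Id4 followed at 30.1 ± 5.91 TPM. Hes1 stood at 8.09 ± 2.48, Hes5 at 7.44 ± 0.953, Hey1 at 6.67 ± 4.06, Id1 at 5.93 ± 2.50, Id3 at 5.88 ± 3.35 and Smad7 at 4.64 ± 1.05 TPM, and the libraries of each of these 6 overlapped those of its neighbour in the order, while all Smad7 libraries lay below all Hes1 and all Hes5 libraries. Hey2 was the lowest of the members detected in every IC library, at 2.82 ± 0.675 TPM. Smad6 was listed at 0 in all 3 IC libraries.

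Id1 was higher in every treated library than in every IC library. The IC libraries held 8.63, 5.45 and 3.70 TPM, and those given EV-GPCs held 27.2, 17.9 and 14.3 TPM. The libraries given the 3-100 kDa proteins held 11.1, 13.2 and 16.0 TPM and those given the total secretome 25.0, 19.3 and 22.0 TPM. The lowest treated library was thus above the highest IC library, and the total secretome group lay above the 3-100 kDa group without overlap, while EV overlapped both. Mean TPM was 3.34 times that of IC with EV, 2.27 times with the 3-100 kDa proteins and 3.73 times with the total secretome. On the log2 scale the differences from IC were 1.60 (SE 0.32) with EV, 1.14 (SE 0.28) with the 3-100 kDa proteins and 1.81 (SE 0.24) with the total secretome. Without any 1 library the EV difference lay between 1.34 and 1.83, the lower value without EV replicate 1, the highest of its group.

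Id3, whose functions overlap with those of Id1 in development, did not follow it. Its libraries held 5.73, 9.30 and 2.62 TPM in IC and 11.7, 11.0 and 9.02 TPM in EV, where only the lowest EV library fell inside the IC range. With the 3-100 kDa proteins the values were 0, 0.478 and 1.49 TPM, all below the lowest IC library. With the total secretome they were 5.11, 5.02 and 3.40 TPM, inside the IC range. On the log2 scale Id3 differed from IC by 0.87 (SE 0.36) with EV, by −1.99 (SE 0.46) with the 3-100 kDa proteins and by −0.19 (SE 0.35) with the total secretome. The EV difference was past p and fold with all libraries and lost this in 5 of the 6 fits without 1 library, that without IC replicate 2 being the exception, and ranged from 0.50 without IC replicate 3 to 1.21 without IC replicate 2. It was not past p and fold either with no filter on low values, without rescaling or with quantile normalization.

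The direct contrasts between preparations were wider for Id3 than for any other member tested. EV exceeded the 3-100 kDa proteins by 2.86 (SE 0.36) and the total secretome by 1.07 (SE 0.19) on the log2 scale, with no overlap of libraries in either case. The total secretome exceeded the 3-100 kDa proteins by 1.80 (SE 0.35), again without overlap. With the smaller pseudocount of 0.25 the first of these was 3.94 and the last 2.76, since the 3-100 kDa libraries lie near 0, and without the library listed at 0 they were 2.54 and 1.47. In the same 3-100 kDa libraries Id1 was above IC, so these related genes lay on opposite sides of the controls there. With EV the means of both genes were above IC, but the lowest EV library of Id3 fell inside the IC range.

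**Figure D2:**
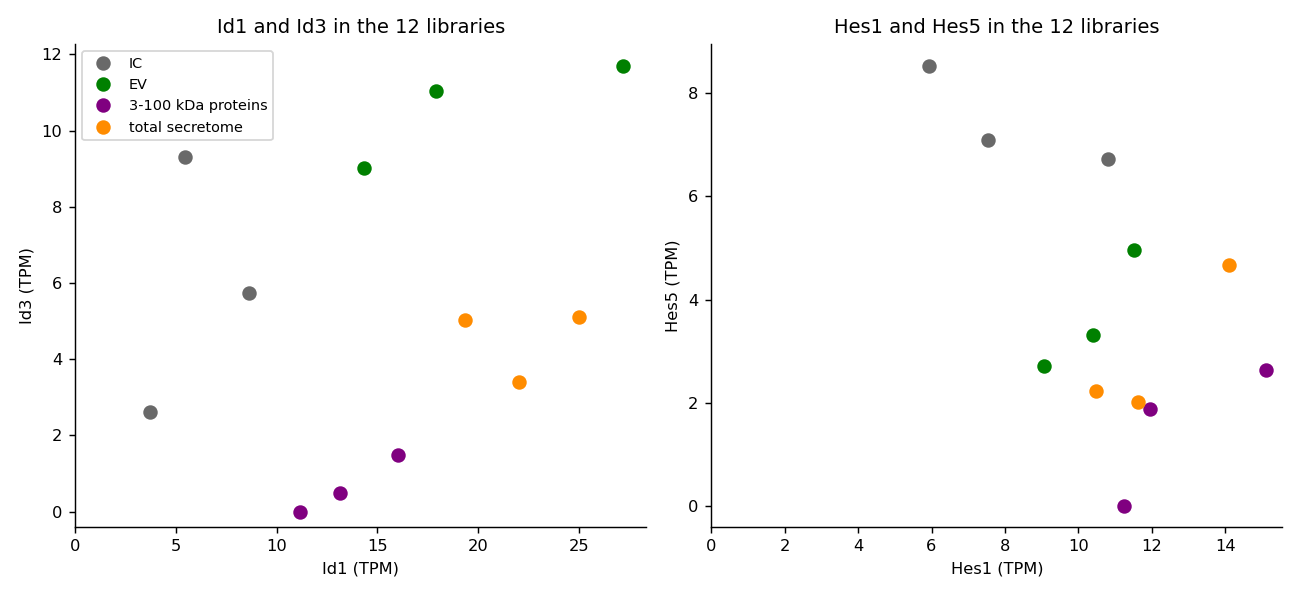
Id1 (horizontal axis, TPM) against Id3 (vertical axis, TPM) on the left, and Hes1 against Hes5 on the right, in the 12 libraries. Each point is 1 library, coloured by group. EV libraries lie high for both Id genes, while the 3-100 kDa libraries lie above IC for Id1 and below it for Id3. IC libraries hold the 3 highest Hes5 values.

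Id2 and Id4, the more abundant Id genes, differed less. Id2 held 147, 134 and 125 TPM in IC, 146, 142 and 138 TPM in EV, 105, 124 and 93.3 TPM with the 3-100 kDa proteins and 132, 130 and 99.6 TPM with the total secretome. EV lay inside the IC range and the 3-100 kDa libraries lay below it, with a log2 difference from IC of −0.31 (SE 0.12), and EV exceeded the 3-100 kDa proteins by 0.38 (SE 0.11). Neither reached a fold of 1.5. Id4, which in neural cells is known as an inhibitor of oligodendrocyte differentiation, held 34.8, 32.2 and 23.5 TPM in IC and 18.2, 26.4 and 19.7 TPM in EV, a difference of −0.48 (SE 0.18) with overlapping libraries. This was not past p and fold with all libraries, but was without IC replicate 3 and without EV replicate 2 (−0.60). With the 3-100 kDa proteins its log2 difference was −0.41 (SE 0.19) and with the total secretome −0.06 (SE 0.16).

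Smad6 and Smad7 are inhibitory SMADs, which block receptor signalling and are themselves induced by it. Smad6 was listed at 0 in all IC and EV libraries, with 0, 0.167 and 0 TPM after the 3-100 kDa proteins and 0, 0.185 and 0.474 TPM after the total secretome. It was therefore kept out of every fit by the filter of at least 1 TPM in at least 3 libraries, and 9 of the 10 members were tested. Smad7 held 5.42, 5.05 and 3.45 TPM in IC, 4.45, 4.78 and 4.49 TPM in EV, 3.47, 4.00 and 3.59 TPM with the 3-100 kDa proteins and 4.47, 4.86 and 3.03 TPM with the total secretome. Its log2 differences from IC were −0.01 (SE 0.20), −0.22 (SE 0.20) and −0.12 (SE 0.21) in that order, all within 2 SE of 0.

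Hes5 was lower in every treated library than in every IC library. IC held 7.09, 6.72 and 8.52 TPM and EV 4.96, 2.71 and 3.31 TPM. The 3-100 kDa proteins gave 2.64, 1.87 and 0 TPM and the total secretome 2.23, 4.66 and 2.02 TPM. The highest treated library, an EV library, was below the lowest IC library. On the log2 scale Hes5 differed from IC by −0.89 (SE 0.26) with EV, by −1.95 (SE 0.46) with the 3-100 kDa proteins and by −1.13 (SE 0.28) with the total secretome. The EV difference was past p and fold, but not with all 12 libraries in one fit (−0.88). The 3-100 kDa difference was −1.40 without the library listed at 0 and −2.74 with a pseudocount of 0.25. Every EV library also lay above every 3-100 kDa library, by 1.08 (SE 0.49), a difference that was not past p and fold with all libraries of both groups, but was with the replicate number as a block, with all 12 libraries in one fit and in 1 of 6 fits without 1 library, that without 3-100 kDa replicate 1 (1.44). Without 3-100 kDa replicate 3, the library listed at 0, the difference was 0.53.

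Hes1, the family member that other pathways as well as Notch are known to induce, leaned the other way. IC held 7.54, 10.8 and 5.94 TPM and the 3-100 kDa proteins 15.1, 11.9 and 11.3 TPM, so that these groups did not overlap. The total secretome gave 10.5, 14.1 and 11.6 TPM and EV 11.5, 9.07 and 10.4 TPM, both overlapping IC through its highest library. The log2 differences from IC were 0.65 (SE 0.22) with the 3-100 kDa proteins, 0.57 (SE 0.23) with the total secretome and 0.34 (SE 0.24) with EV. The first was past p and fold with all libraries and not without IC replicate 1, IC replicate 3 or 3-100 kDa replicate 1, and was lowest, at 0.52, without IC replicate 3. The total secretome difference was not past p and fold with all libraries. It was with a pseudocount of 0.25, without IC replicate 2 (0.76) and without total secretome replicate 1. The 2 Hes genes, whose promoters both hold GTGGGAA, thus lay on opposite sides of IC in the 3-100 kDa libraries.

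Hey1 and Hey2 encode related repressors known from the vasculature and from neural progenitors. Hey1 varied most within IC, at 11.1, 3.19 and 5.68 TPM, a range that held every treated library. It held 7.71, 6.89 and 5.92 TPM after the total secretome, 3.81, 8.04 and 8.07 TPM after the 3-100 kDa proteins and 6.66, 4.12 and 4.59 TPM with EV, and its log2 differences from IC were 0.18 (SE 0.34), 0.10 (SE 0.42) and −0.22 (SE 0.39) in that order. Hey2 held 3.35, 3.05 and 2.06 TPM in IC, 5.95, 3.70 and 3.79 TPM in EV, 1.996, 1.04 and 2.16 TPM with the 3-100 kDa proteins and 5.54, 2.13 and 3.18 TPM with the total secretome. Its EV libraries lay above all IC and all 3-100 kDa libraries, with log2 differences of 0.51 (SE 0.25) and 0.98 (SE 0.29), and the former was 0.31 without EV replicate 1. The total secretome exceeded the 3-100 kDa proteins by 0.71 (SE 0.31) with overlapping libraries. This was not past p and fold, but was with the replicate block, with all 12 libraries in one fit, without rescaling, and without 3-100 kDa replicate 3 (0.87) or total secretome replicate 2 (0.95), and it was 0.46 without total secretome replicate 1.

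**Figure D3:**
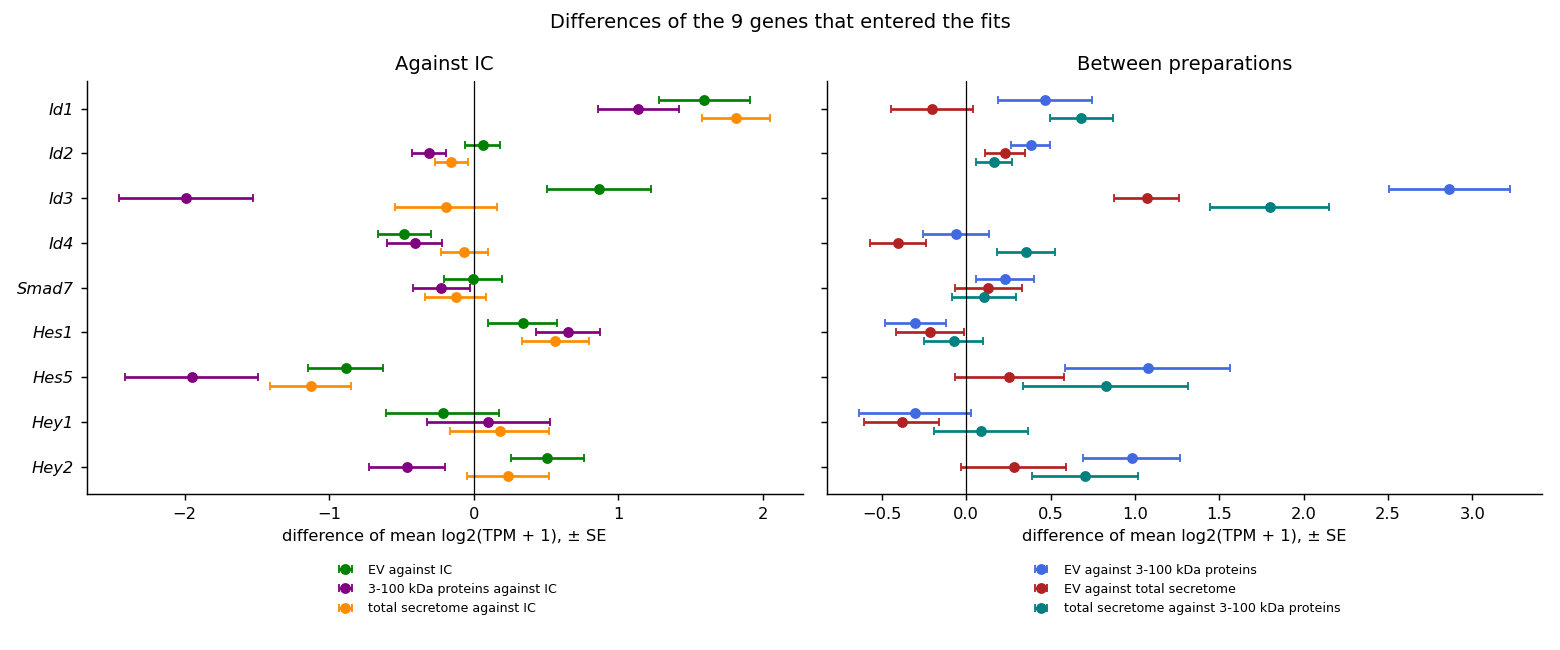
Differences in mean log2(TPM + 1) (horizontal axes) for the 9 genes that entered the fits, against IC on the left and between preparations on the right. Points are the differences, first-named group minus the second, and bars are 1 SE of the limma fit (3 libraries per group). Id1 lies right of 0 and Hes5 left of 0 with all 3 preparations, and Id3 has the widest spread.

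Against IC, 3 of the 9 members tested were past p and fold with EV (Id1 and Id3 higher, Hes5 lower), where 2.16% of all genes tested were. With the 3-100 kDa proteins 4 of 9 were (Id1 and Hes1 higher, Id3 and Hes5 lower), against 10.0% of all genes, and with the total secretome 2 of 9 were (Id1 higher, Hes5 lower), against 8.09%. Past the FDR were 0 members with EV and 0 with the 3-100 kDa proteins, where 0.141% and 3.31% of all genes passed, and 1 with the total secretome, Id1, where 1.97% passed, which it did not without any 1 of the 3 total secretome libraries. With all 12 libraries in one fit 1 member passed the FDR with EV, Id1, against 0.437% of all genes, and 3 with the 3-100 kDa proteins, Id1, Id3 and Hes5, against 6.88%. Since the members were chosen from these contrasts, nothing is read from their counts. The 3 comparisons share the IC libraries and are not independent.

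Between preparations, 2 of 9 members were past p and fold for EV against the 3-100 kDa proteins (Id3 and Hey2, both higher in EV), against 5.14% of all genes, and 1 of them, Id3, passed the FDR, against 0.534%, as it did in 2 of 6 fits without 1 library and neither at a pseudocount of 0.25 nor with no filter. For EV against the total secretome 1 of 9 was, Id3, against 4.00% of all genes, and 0 passed the FDR, against 0.188%. For the total secretome against the 3-100 kDa proteins 2 of 9 were, Id1 and Id3, both higher with the secretome, against 1.24% of all genes, and 0 passed the FDR, against 0.0157%. Without 3-100 kDa replicate 1 the difference of Id1 was 0.54 and no longer past p and fold, while that of Hes5, 1.19, then was. With the replicate block Hes5 joined the first of these, where 6.55% of all genes were then past p and fold, and Hey2 the last, where 1.81% were.

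The other genes of the pathways were taken from 10 lists of ligands, receptors, transducers, antagonists, targets and partners, written with earlier results of these data known and holding none of the members. Of their 105 genes, 101 were in the files. They were tested in the same fits, with adjusted p over all genes. Of 82 tested with EV, 2 were past p and fold and 0 past the FDR. With the 3-100 kDa proteins 17 of 86 were past p and fold, 8 higher and 9 lower, and 8 of them passed the FDR. Of these 8, 2 reached 1 TPM in no IC library and entered the test only through the group where they are high, so their calls are no support. The count past the FDR was 0 without 3-100 kDa replicate 2 or replicate 3, 2 without IC replicate 1, 3 without IC replicate 3 or 3-100 kDa replicate 1, and 8 without IC replicate 2. With the total secretome 12 of 85 were, 6 higher and 6 lower, and 3 passed the FDR. Without total secretome replicate 2 the count past p and fold was 7. The count past the FDR was 0 without IC replicate 1, IC replicate 3, total secretome replicate 2 or total secretome replicate 3, 1 without total secretome replicate 1, and 7 without IC replicate 2. The shares of all genes given above, 2.16%, 10.0% and 8.09%, are the background of the counts past p and fold with all libraries. For the counts past the FDR with all libraries the background is 0.141% with EV, 3.31% with the 3-100 kDa proteins and 1.97% with the total secretome. The median difference over the pathway genes was 0.03 with EV, −0.03 with the 3-100 kDa proteins and 0.00 with the total secretome, beside −0.01, −0.02 and −0.01 over all genes tested.

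Among the BMP and TGF-beta ligands, Tgfb2 had the highest level, between 59.6 and 91.7 TPM. Inhba, the subunit of activin A, was the only ligand past p and fold, in 1 of 12 tested with the 3-100 kDa proteins and 1 of 11 with the total secretome. Its log2 difference was 0.80 (SE 0.30, adjusted p = 0.22) with the former and 0.84 (SE 0.35, adjusted p = 0.30) with the latter by limma, so it passed no FDR, and each call held in 2 of 6 fits without 1 library. Of the Bmp genes themselves none was past p and fold in any comparison with IC.

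Tgfbr2, the ligand-binding receptor of TGF-beta, entered the test of the 3-100 kDa proteins only through the libraries where it is high, so its difference there is given as a description. It held 0, 0.0788 and 0.0938 TPM in IC, 1.22, 2.69 and 2.39 TPM with the 3-100 kDa proteins, 0.366, 1.02 and 1.74 TPM with the total secretome and 0.178, 1.22 and 1.09 TPM with EV, so that every treated library exceeded every IC library. Its difference with the 3-100 kDa proteins was 1.53 (SE 0.27), and at these low levels it did not enter the fits of the other preparations against IC. Bmpr1b, a type I receptor for BMPs, was past p and fold in the lower direction there, at −0.64 (SE 0.23, adjusted p = 0.21 by limma), a call that held in 2 of 6 fits without 1 library. Bmpr2, the type II receptor and the most abundant of the list, ranged from 29.7 to 83.0 TPM over the 12 libraries.

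Of the 6 SMAD transducers only Smad3, the effector of TGF-beta and activin, was past p and fold, with 4.80, 4.75 and 4.84 TPM in IC and 7.85, 7.24 and 8.41 TPM with the 3-100 kDa proteins, a difference of 0.63 (SE 0.18, adjusted p = 0.13 by limma). Smad4, the shared partner and the most abundant of them, lay between 25.3 and 46.1 TPM. Of the antagonists, which bind ligands or act as decoy receptors, Bmper was past p and fold upwards with the 3-100 kDa proteins at 0.61 (SE 0.18, adjusted p = 0.14) and Bambi downwards at −0.63 (SE 0.23, adjusted p = 0.22), which held in 3 of 6 fits without 1 library and not with the replicate block. Fst, which binds activin, was past p and fold downwards with the total secretome at −1.12 (SE 0.26, adjusted p = 0.086). Fst held 11.7, 6.86 and 7.09 TPM in IC and 4.11, 2.15 and 3.69 TPM with the total secretome. Nbl1 had the highest level of the list, between 41.2 and 91.4 TPM.

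The list of other SMAD targets and feedback genes held the most calls. With the 3-100 kDa proteins 4 of 9 tested were past p and fold upwards and past the FDR, 1 of them a gene that entered the test only through the 3-100 kDa libraries. Klf10, an early TGF-beta response gene, held 14.4, 8.83 and 10.7 TPM in IC and 35.3, 68.6 and 57.5 TPM with the 3-100 kDa proteins, a difference of 2.16 (SE 0.28, adjusted p = 0.0084 by limma). Pmepa1, a feedback inhibitor of TGF-beta signalling, held 30.3, 44.9 and 24.8 TPM in IC and 92.1, 84.7 and 86.4 TPM there (1.44, SE 0.21, adjusted p = 0.013), and Tgif1, a SMAD corepressor, differed by 1.12 (SE 0.21, adjusted p = 0.034). Without 1 library Klf10 passed the FDR in 4 of 6 fits, Pmepa1 in 3 of 6 and Tgif1 in 1 of 6.

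With the total secretome 4 of 10 were past p and fold, all of them higher. Klf10 rose by 1.51 (SE 0.24, adjusted p = 0.024 by limma) and Pmepa1 by 1.38 (SE 0.22, adjusted p = 0.027), while Tgif1 differed by 0.71 (SE 0.23, adjusted p = 0.18). Without 1 library Klf10 passed the FDR in 2 of 6 fits, with adjusted p up to 0.146, and Pmepa1 in 1 of 6, with adjusted p up to 0.160. With EV the pathway genes past p and fold were Pmepa1, at 0.72 (SE 0.28), and Klf10, at 0.61 (SE 0.25), each with adjusted p = 0.9998, overlapping libraries and a call that held in 2 of 6 fits without 1 library. EV libraries held 12.4, 21.2 and 20.7 TPM of Klf10, which overlapped IC and lay below every 3-100 kDa library. The mean level of Klf10 was highest in the 3-100 kDa libraries, where Id3 was lowest. Without IC replicate 3 or EV replicate 2 the count of pathway genes past p and fold with EV was 0.

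**Figure D4:**
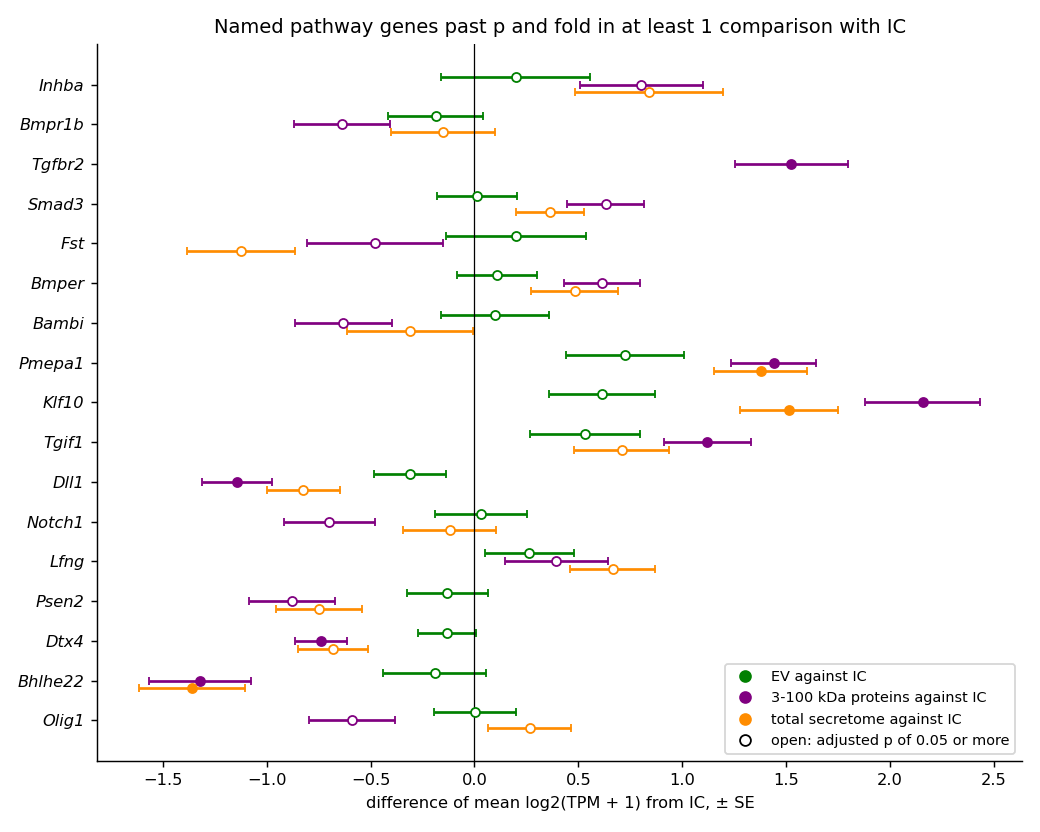
Differences from IC in mean log2(TPM + 1) (horizontal axis) of the 17 named pathway genes past p and fold in at least 1 comparison with IC, for EV, the 3-100 kDa proteins and the total secretome. Points are differences with 1 SE of the limma fit (3 libraries per group), filled where the adjusted p was under 0.05 (for Tgfbr2 a description only), and a gene with no point did not enter that fit. SMAD targets such as Klf10 and Pmepa1 lie right of 0, and Notch genes such as Dll1 and Dtx4 lie left of 0, and for these 4 the EV points are nearest to 0.

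On the Notch side, 1 of 4 ligands tested fell with the 3-100 kDa proteins. Dll1, a Notch ligand of differentiating neurons, held 11.7, 13.6 and 11.8 TPM in IC and 5.06, 5.45 and 4.34 TPM there, a difference of −1.14 (SE 0.17, adjusted p = 0.014 by limma). With the total secretome it held 6.35, 7.75 and 5.43 TPM (−0.82, SE 0.18, adjusted p = 0.066), and with EV 10.3, 10.4 and 8.80 TPM, below IC without overlap but not past p and fold. The FDR call of Dll1 held in 2 of 6 fits without 1 library, with adjusted p up to 0.106. Jag2, the most abundant ligand, lay between 7.52 and 12.6 TPM in all 12 libraries. Of 4 receptors tested Notch1 was past p and fold downwards with the 3-100 kDa proteins, from 10.7, 15.4 and 10.1 TPM to 5.96, 6.95 and 7.57 TPM (−0.70, SE 0.22, adjusted p = 0.16), and it is also the most abundant of them.

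Among 16 processing and nuclear effector genes, Psen2, a catalytic subunit of the gamma-secretase that releases the Notch intracellular part, was past p and fold downwards with the 3-100 kDa proteins at −0.88 (SE 0.21, adjusted p = 0.074 by limma) and with the total secretome at −0.75 (SE 0.21, adjusted p = 0.13). Lfng, which modifies Notch receptors with sugars, was past it upwards with the total secretome at 0.67 (SE 0.20, adjusted p = 0.17). Psenen, another subunit of the enzyme and the most abundant of the list, lay between 69.5 and 162 TPM. Of 3 other Notch targets tested, Dtx4, a ubiquitin ligase of the Deltex family, fell with the 3-100 kDa proteins. It held 71.4, 64.1 and 70.9 TPM in IC and 43.9, 41.0 and 35.3 TPM there (−0.74, SE 0.12, adjusted p = 0.025), with the FDR call kept in 1 of 6 fits without 1 library and adjusted p up to 0.173. With the total secretome the difference was −0.68 (SE 0.17, adjusted p = 0.10).

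The partners of Id and Hes proteins, which are helix-loop-helix factors and Groucho corepressors, gave 3 calls of 14 tested with the 3-100 kDa proteins, all lower. Bhlhe22, a transcription factor of cortical projection neurons, held 120, 65.5 and 106 TPM in IC, 35.6, 33.1 and 40.6 TPM with the 3-100 kDa proteins, 38.5, 28.5 and 41.1 TPM with the total secretome and 69.0, 87.1 and 94.8 TPM with EV. It fell by 1.32 (SE 0.24, adjusted p = 0.035 by limma) with the 3-100 kDa proteins and by 1.36 (SE 0.25, adjusted p = 0.046) with the total secretome, each FDR call kept in 1 of 6 fits without 1 library, with adjusted p up to 0.172 and 0.218. Olig1, a factor of the oligodendrocyte lineage, was past p and fold with the 3-100 kDa proteins at −0.59 (SE 0.21, adjusted p = 0.20), in 3 of 6 fits without 1 library. Tcf4, an E protein bound by Id proteins and the most abundant gene of the list, lay between 153 and 257 TPM.

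Between EV and the 3-100 kDa proteins 13 of 87 pathway genes were past p and fold, 8 higher in EV and 5 lower, where 5.14% of all genes were. Bambi, Dll1, Notch1, Psen2, Dtx4, Bhlhe22 and Olig1 were among those higher in EV, and Tgfbr2, Smad3, Klf10 and Pmepa1 among those lower. The difference was 1.14 (SE 0.18) for Bhlhe22, 0.85 (SE 0.16) for Dll1 and −1.53 (SE 0.30) for Klf10. In fits without 1 library Bambi and Dtx4 kept the call in 5 of 6, Pmepa1 in 4 and Tgfbr2, Smad3 and Olig1 in 3. Without a block 0 passed the FDR, the lowest adjusted p being 0.058 for Bhlhe22 by limma. The replicate numbers of these groups marked libraries that deviated together, and with the number as a block 18 were past p and fold and 7 passed the FDR, Klf10, Dll1, Dtx4, Bhlhe22 and Olig1 among them, beside 2.67% of all genes. The blocked adjusted p was 0.0040 for Klf10 and 0.0081 for Bhlhe22.

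For EV against the total secretome 6 of 86 pathway genes were past p and fold, against 4.00% of all genes, and 0 passed the FDR. Fst was higher in EV by 1.34 (SE 0.34, adjusted p = 0.35 by limma) and Bhlhe22 by 1.18 (SE 0.19, adjusted p = 0.096), as were Psen2 and Neurod1, a proneural factor, while Klf10 and Pmepa1 were lower by log2 differences of −0.89 (SE 0.26) and −0.64 (SE 0.24). Without 1 library Psen2 kept its call in 3 of 6 fits, and Neurod1 and Pmepa1 in 2 of 6. With the replicate block the count was 9, against 4.90% of all genes. For the total secretome against the 3-100 kDa proteins 4 of 87 were, against 1.24%, with 0 past the FDR. Among them Olig1 and Notch1 were higher with the secretome, at 0.86 (SE 0.17) and 0.59 (SE 0.21). With the replicate block this last count was 7.

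Markers of the cell types in the cultures were read beside these results. Over the 12 libraries the summed level of 10 neuron markers lay between 3080 and 3958 TPM, of 10 astrocyte markers between 1068 and 1864 TPM, of 8 oligodendrocyte lineage markers between 81.0 and 193 TPM and of 6 dividing cell markers between 87.8 and 218 TPM. Microglia markers summed to at most 2.32 TPM, endothelial markers to at most 0.758 TPM and fibroblast and mural markers to between 2.05 and 4.28 TPM, with P2ry12 at 0 in all IC, EV and 3-100 kDa libraries and Tie1 at 0 in all 12. The astrocyte sum was 1304 ± 234 TPM in IC, 1528 ± 221 in EV, 1444 ± 204 with the 3-100 kDa proteins and 1616 ± 217 with the total secretome (SD, n = 3), ranges that overlap, and the oligodendrocyte lineage sum was 146 ± 33.0, 131 ± 10.7, 114 ± 28.6 and 149 ± 38.5 TPM in the same order. Of the 10 astrocyte markers only Gfap was past p and fold against IC, with EV at 1.58 (SE 0.51, adjusted p = 0.9998 by limma) and with the total secretome at 1.40 (SE 0.55, adjusted p = 0.27), and of the 6 oligodendrocyte lineage markers tested only Sox10, with the 3-100 kDa proteins at −0.79 (SE 0.30, adjusted p = 0.23). Of the 10 neuron markers only Nefm was, and it rose with the 3-100 kDa proteins by 0.79 (SE 0.14, adjusted p = 0.029) and was past p and fold with the total secretome at 0.72 (SE 0.15, adjusted p = 0.063). Of the fibroblast and mural markers, Pdgfrb of mural cells was past p and fold downwards with EV at −0.90 (SE 0.24, adjusted p = 0.74) and with the total secretome at −0.92 (SE 0.22, adjusted p = 0.091). With the 3-100 kDa proteins the difference was −1.42 (SE 0.24) for Pdgfrb and 1.10 (SE 0.24) for Col1a1, a collagen gene of fibroblasts, and each entered that test only through the group where it is high. None of the 6 dividing cell markers was past p and fold against IC. The part of these shifts in the values of Id1, Id3, Hes5 and Olig1 was not tested.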

How the data were processed

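The deposited values are the TPM that the authors obtained with Salmon and tximport, as their methods describe for rn6 transcripts (Rnor 6.0 in the submitters' processing notes). The unit was read from the values, since each library sums to 1000000. TPM keeps no depth, so no counting interval was computed. Labels and methods differ on the sequencing instrument and on the exact age of the pups.

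Rows of 1 name were summed, TPM was rescaled by median-of-ratios factors (0.909 to 1.08 over the 12 libraries), and a gene entered a comparison when 3 or more of its 6 libraries reached 1 TPM. The log2(TPM + 1) values were fitted with limma 3.58.1 (mean-variance trend) in R 4.3.3, 1 fit for each of 6 comparisons, with Benjamini-Hochberg adjustment over all genes. The fits were tested on simulated data. Named genes were the members, pathway genes past p and fold (at most 4 of lowest p per list and comparison), the most abundant gene of each list, and the 5 genes most correlated with Id1 and with Hes5. Nefm, Pdgfrb, Col1a1, Gfap and Sox10 were named from the marker lists after their values were seen. Some pathway genes that the counts include are not reported here by name. The members and lists were chosen with earlier results of these data known. The day covariate of the authors' own plot is not given per library and was not used.

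Replicate numbers were read as pairs where the deviations of all same-numbered libraries correlated above 0.1. This held for the total secretome against IC (lowest r 0.158) and for the 3 comparisons between preparations (lowest r 0.288, 0.186 and 0.215), from the data alone, and not for EV or the 3-100 kDa proteins against IC (lowest r −0.18 and −0.25). Alternatives were a pseudocount of 0.25, no filter, no rescaling, quantile normalization, all 12 libraries in one fit, the replicate block, the row of highest mean for each name, and leaving out each library.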

Additional observations from a re-analysis of the deposited data

Results flagged for a closer look

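Among the members and the named pathway genes, 4 had all libraries of one preparation above the IC mean and all of another below it, and whether this opposition differs from chance was not tested. Id3 had every EV library above the IC mean of 5.88 TPM and every 3-100 kDa and total secretome library below it, with EV ahead by 2.86 and 1.07 on the log2 scale. Id2 showed the same order around an IC mean of 135 TPM, with smaller differences of 0.38 and 0.23. Hey2 had every EV library above its IC mean of 2.82 TPM and every 3-100 kDa library below it, a difference of 0.98. Olig1 had every total secretome library above its IC mean of 87.1 TPM and every 3-100 kDa library below it, a difference of 0.86. The IC mean is shared by both sides of each comparison.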

How the results depend on the processing

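No difference of a member or named pathway gene that was past p and fold changed direction under any alternative. For the members, 696 values under alternatives moved by less than the spread between replicates. The other 6 were Id3 and Hes5 in the 3 comparisons with the 3-100 kDa proteins at a pseudocount of 0.25, where low values weigh more. Of the named pathway genes, 1242 values stayed on their side of the threshold, 79 lost p and fold and 7 gained it. The count of pathway genes past p and fold with EV against IC was 2, and was 4 with no filter on low values, 1 on deposited TPM without rescaling and between 0 and 2 without 1 library. With the total secretome against IC it was 12, and between 7 and 16 without 1 library, lowest without total secretome replicate 2. For the total secretome against the 3-100 kDa proteins, where the replicate numbers pair the libraries, it was 4 and became 7 with the replicate block. In the unpaired comparisons with IC the block gave 2 pathway genes with EV, where Klf10 lost p and fold and Dll3, named after its value was seen, gained it (−0.62). With the 3-100 kDa proteins it gave 18, with 3 in place of 8 past the FDR, and the share of all genes with this block is not given. The all-library fit gave 12 past the FDR there, where the share of all genes also rose, from 3.31% to 6.88%. Beyond the calls named above, the block changed no call of a member. Genes near 1 TPM, such as Tgfbr2, left the fits when a library that held them was omitted, and depth limits below that level could not be given.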

Other observations

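The genes whose log2(TPM + 1) over the 12 libraries ran most like that of Id1, among 13262 compared, were Fos (Pearson r 0.954, Spearman rho 0.895), Tnfrsf1a (0.933, 0.909), Hspb1 (0.914, 0.797), RGD1311458 (0.913, 0.846) and Prr5l (0.894, 0.874). Fos is an immediate early transcription factor, Tnfrsf1a a receptor of tumour necrosis factor and Hspb1 a small heat shock protein. For Hes5 they were Nme7 (0.934, 0.804), Sema4b (0.925, 0.874), Cnppd1 (0.908, 0.916), Caskin2 (0.904, 0.867) and Mrpl2 (0.900, 0.888). These are descriptions of 12 points that fall into 4 treatment groups and share libraries, with the highest of many correlations picked, so values of this size carry no test.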
